A study of Arabidopsis thaliana with 12 samples.

Results

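ICU4 and TPL peaks near genes were compared in chromatin immunoprecipitation with sequencing (ChIP-seq) data from Arabidopsis thaliana. A peak was a member when its summit lay inside a protein-coding gene, or within 2000 bp of one, on the 5 nuclear chromosomes. This held for 8319 of the 9041 ICU4 peaks and 12041 of the 12785 TPL peaks, out of 38116 peaks in the 6 lists of the series. Both lines were whole seedlings of the Ler ecotype, 10 days old, in which the locus of the named protein carried 2xYPet-3xHA at its C-terminus. The ICU4 line had the ICU4 fusion and the TPL line the TPL fusion, and both immunoprecipitations used an antibody against GFP. There was 1 peak list per protein, set against the input of the same line. No difference between the lists therefore has a replicate error, and no test of one was possible. A peak list from untagged seedlings was not used here.

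ICU4, also called CORONA or ATHB15, is a transcription factor of the HD-ZIPIII family (homeodomain leucine-zipper proteins of class III), which acts in leaf polarity, the shoot meristem and the vasculature. TPL (TOPLESS) does not recognise DNA itself. It is carried to genes by transcription factors that bear a short repression motif, among them the Aux/IAA proteins of auxin signalling, and it brings histone deacetylases with it. Whole seedlings mix cell types, so peaks of both proteins at a site do not show that both proteins were there in the same cell.

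The lists differ in width and in the height of the signal. The median near-gene peak spanned 221 bp for ICU4 and 565 bp for TPL, and the narrowest ones 141 bp and 285 bp. Together the ICU4 peaks covered 2.36 Mb and the TPL peaks 9.21 Mb. The authors' pileup, the coverage at the summit, moved in steps of 1 in the ICU4 list and of 0.85 in the TPL list, and the median summit stood at 25 such steps for ICU4 and 127 for TPL. Pileup divided by fold enrichment, a rough measure of the background under a peak, had a median of 7.64 and 33.9. Read depth itself is unknown. Fold enrichment is the authors' ratio of immunoprecipitated signal to local background, with a median of 3.17 for ICU4 (range 1.31 to 22.0) and 3.18 for TPL (range 1.38 to 17.8). It was read within a list only, as a percentile in which 100 is the strongest near-gene peak.

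Most ICU4 peaks near genes lay in a TPL peak, while most TPL peaks had no ICU4 peak. A TPL peak was overlapped by 5924 of 8319 ICU4 peaks, 71.2% (Wilson 95% interval, which covers counting error only, 70.2 to 72.2). In the other direction 4631 of 12041 TPL peaks, 38.5% (37.6 to 39.3), overlapped an ICU4 peak. Single pairs were the rule, as 3698 TPL peaks held 1 ICU4 peak, 678 held 2 and 255 held 3 or more. The TPL peaks with 3 or more were wide, with a median of 2496 bp against 708 bp for those with 1. On single chromosomes the ICU4 share ran from 69.8% on chromosome 4 to 72.9% on chromosome 5.

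The ICU4 share was higher outside genes than inside them. Of the 2313 ICU4 peaks with a summit outside a gene, 88.5% (87.1 to 89.7) overlapped a TPL peak, against 64.6% (63.4 to 65.8) of the 6006 with a summit inside one. It was 93.1% for summits 1 to 250 bp from the gene and 84.7% for those more than 1000 bp from it. Inside genes it was 71.2% within 250 bp of either gene end and 49.3% more than 1000 bp from both ends. ICU4 peaks without TPL were accordingly mostly inside genes, 88.9% of them (87.5 to 90.1) against 65.5% (64.2 to 66.7) of those with TPL. Which end of a gene is its start could not be told, because the gene table carries no strand.

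TPL peaks were divided by position in another way. Within each strength class the share overlapping ICU4 was higher inside genes than outside, at 24.0% (22.0 to 26.1) against 13.3% (11.1 to 16.0) in the weakest class and 74.6% (71.6 to 77.5) against 71.6% (69.3 to 73.8) in the strongest. Over the whole list the shares were 39.7% inside and 37.1% outside. TPL summits were inside a gene in 54.6% of the peaks with ICU4 and 51.8% of those without, a difference of 2.78 percentage points that changed sign under 4 of the alternatives, for example when summits had to lie within 100 bp (-8.45). The TPL list as a whole had 52.9% of its near-gene summits inside genes, and the ICU4 list 72.2%.

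**Figure D1:**
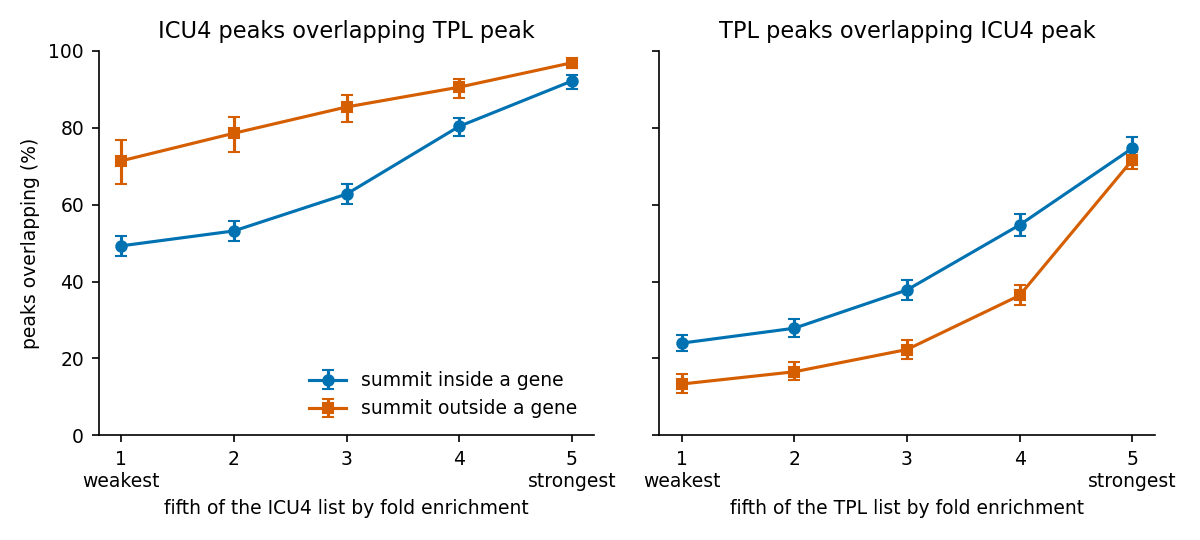
Share of ICU4 peaks overlapping a TPL peak (left) and of TPL peaks overlapping an ICU4 peak (right), in percent, by class of fold enrichment within the list, each class holding about 20% of it, for summits inside and outside genes. Bars are Wilson 95% intervals. The share rises from 49.3% to 92.1% for ICU4 summits inside genes and from 71.4% to 96.9% for those outside.

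Stronger peaks were shared more often in both lists. In the weakest 20% of ICU4 peaks, with fold enrichments from 1.31 to 2.66, 52.4% overlapped TPL. In the strongest 20%, from 4.05 to 22.0, the share was 94.5% (93.3 to 95.5). For TPL it went from 20.6% (19.1 to 22.3) in the weakest 20% to 72.6% (70.8 to 74.4) in the strongest. The rise held inside and outside genes in both lists. Stronger peaks were also wider, 362.5 bp against 182 bp at the median in the strongest and weakest ICU4 classes and 1092 bp against 366 bp in those of TPL, and the part of width in the rise was not tested. With each peak replaced by 100 bp to each side of its summit, the median percentile was 66.5 for ICU4 peaks with TPL and 38.2 for those without.

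The summits of overlapping pairs were closest outside genes. Each ICU4 peak was paired with the TPL summit nearest to it among the TPL peaks it overlapped, and the 5924 pairs had a median distance of 94 bp (95% interval of the median 87 to 101). Where both summits lay outside genes, in 1903 pairs, the median was 32 bp (30 to 34) and 81.9% were within 100 bp. With both inside, in 3034 pairs, it was 125 bp (116 to 136) and 44.9% were within 100 bp. A further 844 pairs had the ICU4 summit inside a gene and the TPL summit outside, at a median of 645 bp and in TPL peaks of 1710.5 bp at the median. Only 143 had the reverse arrangement, at a median of 227 bp.

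**Figure D2:**
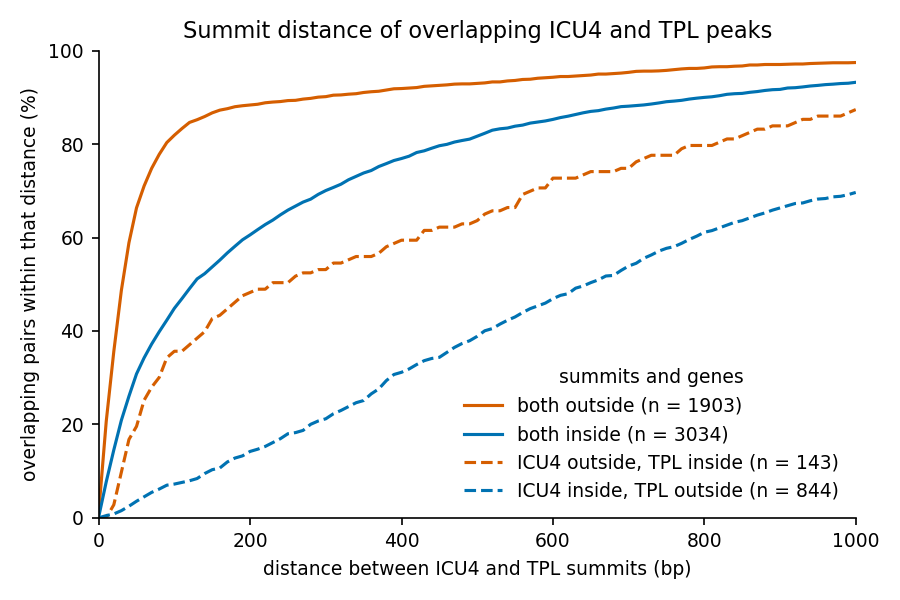
Cumulative percentage of overlapping ICU4 and TPL pairs (vertical axis) whose summits lie within a given distance in bp (horizontal axis), for the 4 arrangements of the summits relative to genes. The line for both summits outside genes reaches 81.9% at 100 bp, that for both inside 44.9%, and that for ICU4 inside with TPL outside 7.23%.

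The gap between outside and inside pairs was present at each strength and width examined. In the strongest 20% of ICU4 peaks the median distance was 24 bp with both summits outside and 56 bp with both inside, and in the weakest 20% it was 58 bp and 208 bp. In TPL peaks narrower than 500 bp it was 27 bp outside and 68 bp inside. Among TPL peaks of 1000 bp or more it was 40 bp and 307 bp. In most of the pairs, 96.3%, the ICU4 summit was within the TPL peak, but the TPL summit was within the ICU4 peak in 58.9%.

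Outside genes the PHB and PHV lists had distances to TPL close to that of ICU4, and the REV and ATHB8 lists had longer ones. With both summits outside, the median distance to TPL was 29 bp for PHB (26 to 33), 31 bp for PHV (27 to 33), 44 bp for REV (37 to 51) and 66 bp for ATHB8 (51 to 92). Between ICU4 and its relatives the median over all overlapping pairs was 36 bp with PHV, 41 bp with PHB, 70 bp with REV and 88 bp with ATHB8. The near-gene share overlapping TPL was 81.5% (79.9 to 83.0) for PHB, 77.8% (76.0 to 79.4) for PHV and 70.0% (68.1 to 71.9) for REV, against 30.9% for ATHB8. Outside genes it was 89.9% for PHB, near the ICU4 value, but 53.7% for REV and 15.5% for ATHB8.

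In overlapping pairs, the ranks in the lists rose together in part. Across the 5924 pairs Spearman's rho between ICU4 and TPL percentile was 0.34, and it was 0.44 across the 3032 pairs with summits within 100 bp. These are descriptions across sites of 1 pair of libraries, and TPL peaks with several ICU4 peaks enter more than once. Of the 1591 shared ICU4 peaks in the top 20% of their list, 1065 (66.9%) met a TPL peak in the top 20% of its own, and these made up 41.7% of the 2553 pairs with such a TPL peak. Outside genes the TPL partner was high even at weak ICU4 peaks, with a median percentile of 75.9 in the weakest ICU4 class and 91.7 in the strongest. Inside genes it was 53.1 and 81.9.

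**Figure D3:**
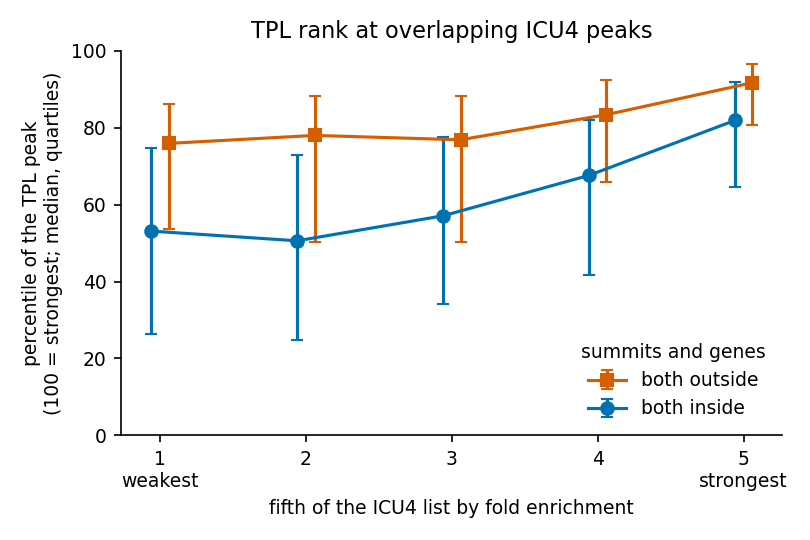
Percentile of the TPL peak within its list (vertical axis, 100 is the strongest) for overlapping pairs in each class of ICU4 fold enrichment (horizontal axis, about 20% of the ICU4 list each), shown as medians with quartiles. Pairs with both summits outside genes sit above pairs with both inside in each class, at 91.7 against 81.9 in the strongest.

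Peaks of PHB, PHV and REV, which took no part in choosing the peaks, were found more often where ICU4 and TPL overlapped, while ATHB8 varied with strength and position. A PHB peak overlapped 28.2% (27.1 to 29.4) of ICU4 peaks with TPL and 6.93% (5.98 to 8.02) of those without. The shares were 25.4% and 6.14% for PHV and 19.7% and 2.67% for REV. ATHB8 peaks overlapped 296 of the 5924 with TPL and 43 of the 2395 without. Of the 296, 235 were in the strongest 20% of ICU4 peaks, where the shares were 14.8% (13.1 to 16.6) with TPL and 6.45% (2.99 to 13.4) without. In the 3 middle classes ATHB8 was slightly less frequent with TPL, for example 1.56% (1.02 to 2.37) against 3.09% (1.57 to 5.98) in the second strongest, and the intervals overlapped. At least 1 of the 4 was present at 41.7% of ICU4 peaks with TPL and 12.2% of those without. Within the strongest 20% of ICU4 peaks the shares were 64.0% (61.7 to 66.4) against 41.9% (32.4 to 52.1) for PHB and 45.4% against 10.8% for REV. Outside genes ATHB8 was also less frequent with TPL, with a peak at 88 of the 2046 ICU4 peaks with TPL and at 20 of the 267 without, 7.49% (4.90 to 11.3).

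TPL peaks without ICU4 were poor in the whole family. At least 1 of the 4 other proteins had a peak at 4.79% (4.33 to 5.30) of them, against 46.6% (45.2 to 48.1) of TPL peaks with ICU4. Among the strongest 20% of TPL peaks, 659 had no ICU4 peak, and 11.8% of these held another HD-ZIPIII peak, compared with 65.7% of the 1749 that had ICU4.

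**Figure D4:**
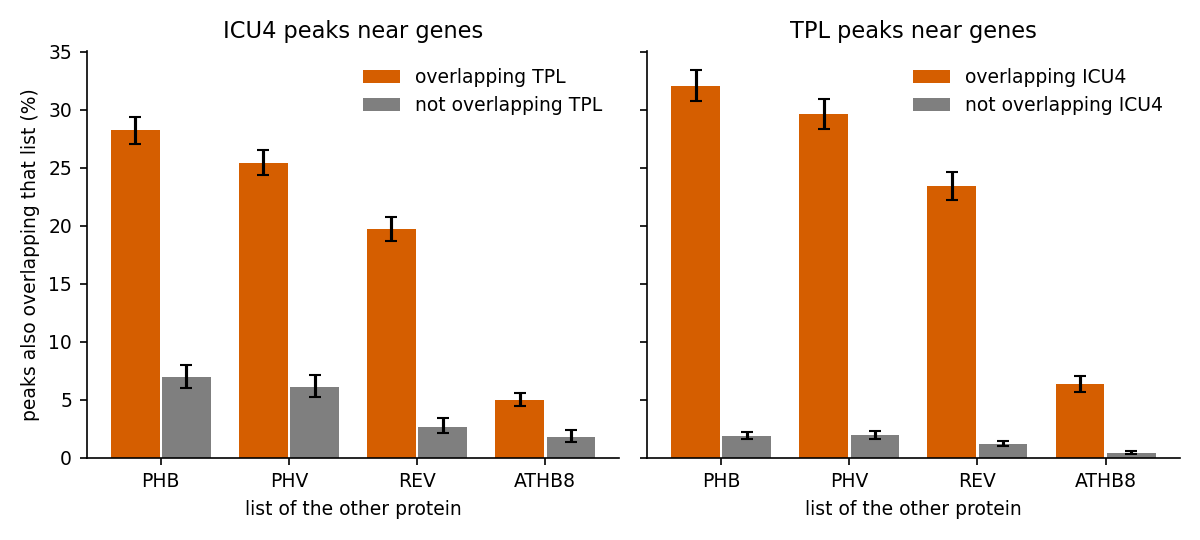
Percentage of near-gene ICU4 peaks (left) and TPL peaks (right) that also overlap a peak of PHB, PHV, REV or ATHB8, for peaks that overlap the partner list and peaks that do not. Bars on the columns are Wilson 95% intervals. PHB peaks are at 28.2% of ICU4 peaks with TPL and 6.93% of those without.

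Each peak was then given to its nearest gene. Several genes lay within 2000 bp of the summit for 66.9% of ICU4 and 64.4% of TPL peaks. A gene described as having no peak is therefore one to which none was assigned, and a neighbour's peak can lie near it. Of 27444 protein-coding genes, 6018 (21.9%) had an ICU4 peak, 9232 (33.6%) a TPL peak and 4477 (16.3%) both. An overlapping pair lay at 4005 genes (14.6%), while 472 genes (1.72%) had peaks of both that did not overlap each other. A further 1541 genes (5.62%) had ICU4 without TPL and 4755 (17.3%) TPL without ICU4. Taking the pair with the best mean percentile at each gene, summits were within 100 bp at 63.8% of the 4005 genes and both outside genes at 37.5%. Of the ICU4 peaks that overlapped no TPL peak, 39.5% lay at a gene with a TPL peak elsewhere.

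The 10 genes with the best mean percentile in both lists were GT18, JAZ3, AT5G08139, AT5G03370, WRKY28, HAT1, AT4G36170, MYBR1, WRKY6 and FP3. GT18 (AT5G62220), which encodes a galactosyltransferase of xyloglucan synthesis, came first, and JAZ3 (AT3G17860), a repressor of jasmonate signalling, second. WRKY28 (AT4G18170) and WRKY6 (AT1G62300) encode WRKY transcription factors. WRKY28 had an ICU4 fold enrichment of 16.3 and a TPL fold enrichment of 11.1 with summits 51 bp apart, and WRKY6 had 14.3 and 11.1, 107 bp apart. MYBR1 (AT5G67300), a MYB transcription factor gene of stress responses, had 11.4 in both lists, 108 bp apart. The summits were 3 bp apart at AT5G03370, at 828778 for ICU4 and 828775 for TPL on chromosome 5, with fold enrichments of 10.0 and 13.3. Summits of both proteins were outside the gene at 9 of these 10 genes, the exception being AT4G36170. REV, PHB and PHV each had a peak assigned to all 10 of these genes, and ATHB8 to all but FP3.

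The genes of the HD-ZIPIII and TPL families themselves carried both proteins at several sites. All 5 HD-ZIPIII genes had a TPL peak and 3 had an ICU4 peak, each of these 3 with an overlapping pair outside the gene. Over all genes 33.6% had a TPL peak, 21.9% an ICU4 peak and 14.6% a pair. At ATHB-15 (AT1G52150), the gene of ICU4, there were 6 ICU4 peaks and 1 TPL peak. The strongest of the 6 spanned 19415292 to 19415979 on chromosome 1. Its fold enrichment was 7.98, and its summit was 43 bp from a weak TPL summit with 2.43. The other 5 lay inside the gene, with fold enrichments from 2.36 to 3.24, and none overlapped TPL. Only 20 genes had 6 or more ICU4 peaks, and since ATHB-15 is the tagged gene in that line, binding there cannot be told apart from an effect of the transgene.

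PHB (AT2G34710) had the strongest TPL peak of the HD-ZIPIII genes. It spanned 14644631 to 14646075 on chromosome 2 and reached a fold enrichment of 9.23. That peak held 2 ICU4 peaks, the weaker with its summit at 14645293, close to the TPL summit at 14645233, and the stronger at 14645836. PHV (AT1G30490) had ICU4 and TPL summits 22 bp apart, at fold enrichments of 3.87 and 5.60. REV (AT5G60690) and ATHB8 (AT4G32880, HB-8 in the gene table) had a TPL peak inside the gene, of 3.21 and 2.06, and no ICU4 peak.

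Co-repressor genes had strong pairs outside the gene. TPR1 (AT1G80490), which encodes the closest relative of TPL, had fold enrichments of 7.09 for ICU4 and 14.2 for TPL with summits at 30267363 and 30267367 on chromosome 1. At TPR3 (AT5G27030) the summits were 2 bp apart, at 9515682 and 9515680 on chromosome 5, with 5.57 and 11.0. TPR2 (AT3G16830) had 5.81 and 11.9, 75 bp apart, and TPL (AT1G15750) itself 4.74 and 5.39, 156 bp apart. TPL is the tagged gene in the TPL line, so the same limit holds for its TPL peak as for the ICU4 peaks at ATHB-15. TPR4 (AT3G15880, WSIP2 in the gene table) had a TPL peak of 3.74 inside the gene and no ICU4 peak.

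Gene lists were described by counts beside those of all genes. The HD-ZIPII genes encode homeodomain repressors with roles in shade avoidance and leaf polarity. They had an overlapping pair at 8 of 10, where all genes had 14.6%. All 8 pairs were within 100 bp and 7 of them outside the gene. HAT1 (AT4G17460) had 12.2 for ICU4 and 11.4 for TPL with summits 4 bp apart. HB4 (AT2G44910) had 9.37 and 12.8, 42 bp apart, and HAT2 (AT5G47370) had 10.9 and 8.16, 36 bp apart. Of the 3 little zipper genes matched, whose small proteins inhibit HD-ZIPIII proteins, ZPR3 had a pair, with 3.90 and 1.88. No peak of either protein was assigned to ZPR1 or ZPR2.

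More auxin genes had a TPL peak than an ICU4 peak, as was so over all genes, with 33.6% and 21.9%. Of the 29 Aux/IAA genes, 20 had a TPL peak, 13 an ICU4 peak and 12 a pair, with 11 of the pairs within 100 bp. IAA2 (AT3G23030) had 8.83 for ICU4 and 14.0 for TPL, 40 bp apart inside the gene. IAA19 (AT3G15540) had 6.99 and 8.74, 9 bp apart, and at IAA16 (AT3G04730) the summits were 23 bp apart, both outside the gene. IAA12, with an ICU4 fold enrichment of 2.68, had no TPL peak, and 8 members, IAA7 and IAA14 among them, had TPL without ICU4. Of the 22 ARF genes, which encode the auxin response factors, 12 had TPL, 7 ICU4 and 5 a pair, and ARF19 (AT1G19220) led with 5.89 and 12.3 inside the gene.

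Auxin transport genes had a pair at 7 of 12, all within 100 bp, where 14.6% of all genes had a pair. PIN7 (AT1G23080), an efflux carrier gene, had 8.61 for ICU4 and 15.1 for TPL, 24 bp apart, and PIN3 (AT1G70940) 6.33 and 11.0, 26 bp apart, both inside the gene. The influx carrier gene LAX1 (AT5G01240) had summits 7 bp apart outside the gene. Auxin synthesis genes had a TPL peak at 7 of 14 members and a pair at 1, YUC9 (AT1G04180), with 4.56 and 6.94, 4 bp apart. That is a TPL peak at 50%, where all genes had 33.6%, and a pair at 7.14%, where all genes had 14.6%. A pair share that rests on 1 gene of 14 is too coarse to be read as a difference from all genes. YUC8 had peaks of both proteins that did not overlap.

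Other hormone lists exceeded the 14.6% of all genes. The JAZ genes with NINJA, the repressors and TPL adaptor of jasmonate signalling, had 8 pairs among 13 members. JAZ3 had 19.2 and 11.3, 41 bp apart, and JAZ6 (AT1G72450) 4.87 and 10.7, 35 bp apart. Brassinosteroid genes had 10 pairs among 16, each within 100 bp, led by the receptor gene BRI1 (AT4G39400) with 8.32 and 11.7 and by BAS1 (AT2G26710), which encodes a brassinosteroid-inactivating enzyme, with 7.60 and 12.4. Gibberellin genes had TPL at 14 of 15, where all genes had 33.6%, and pairs at 9. These included the DELLA repressor genes RGA1 (AT2G01570), with 5.95 and 12.2, and GAI (AT1G14920), with 6.71 and 9.64, and the gibberellin-inactivating GA2OX6 (AT1G02400), where both summits were at 488795 on chromosome 1.

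Abscisic acid receptor genes had 6 pairs among 14, led by PYL5 (AT5G05440) with 5.44 and 9.44, and clade A PP2C genes, the phosphatases those receptors inhibit, 5 among 9, led by PP2CA (AT3G11410) with 5.82 and 11.2. Ethylene genes had TPL at 10 of 12 and 5 pairs, of which 1, at EIL1 (AT2G27050), was within 100 bp. Type-A cytokinin response regulators had TPL at 7 of 10 and 3 pairs. Over all genes 33.6% had TPL and 14.6% a pair. At ARR7 (AT1G19050) a weak ICU4 peak of 2.32 was 20 bp from a TPL peak of 10.4.

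Light and clock genes followed, again beside a pair at 14.6% of all genes. The phytochrome-interacting and shade genes had 8 pairs among 15, with 6.81 and 10.2 at PIL6 (AT3G59060, also PIF5) and summits 1 bp apart at the photoreceptor gene PHYB (AT2G18790). Clock genes had 7 pairs among 16. CCA1 (AT2G46830), a morning repressor, had 3.84 and 10.6, 14 bp apart, and PRR9 (AT2G46790) had a TPL fold enrichment of 9.36, 47 bp from the ICU4 summit. Stomatal and ERECTA genes had 6 pairs among 12, led by EPF2 (AT1G34245), a peptide gene limiting stomatal number, with 6.33 and 8.72. Repressor-type ERF genes had 5 among 8, with 4.43 and 10.8 at ERF12 (AT1G28360). CIN-type TCP genes, which limit leaf growth, had 4 among 8, led by TCP2 (AT4G18390) with 3.55 and 4.45.

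Lists of developmental regulators had a pair at shares from near the 14.6% of all genes to well above it. The share was 13.3% for WUS and WOX genes and 16.7% for KANADI, YABBY, AS1 and AS2 genes. It was 23.1% for shoot meristem and boundary genes, 25% for vascular genes and 37.5% for MADS-box flowering genes. A TPL peak was at 33.6% of all genes. Of 12 KANADI, YABBY, AS1 and AS2 genes, which set leaf polarity, 7 had TPL and 2 a pair, AS1 (AT2G37630) with 4.05 and 8.51 and KAN3 (AT4G17695) with 4.05 and 6.29. The 5 others with TPL, KAN1, YAB1, YAB3, YAB5 and CRC, had no ICU4 peak. Shoot meristem and boundary genes had TPL at 8 of 13 and 3 pairs, at RPL (AT5G02030, also BLR), CLV1 and KNAT6. RPL, a BELL homeodomain gene, had 10.9 for ICU4 and 5.79 for TPL, 21 bp apart. No peak of either protein was assigned to WUS or STM, the core meristem genes. Among WUS and WOX genes 7 of 15 had TPL and 2 a pair, neither within 100 bp. Vascular genes had 3 pairs among 12, and at VND7 (AT1G71930), a xylem vessel regulator, both summits were at the same base. MADS-box flowering genes had TPL at 12 of 16 and 6 pairs, all outside the gene and within 100 bp. AGL19 (AT4G22950) had an ICU4 fold enrichment of 11.3 beside 3.93 for TPL, and AP1 (AT1G69120) had 3.42 beside 9.28.

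Some genes known for strong transcription also had many pairs. The 67 genes with ribosomal protein in a name, a match by words only, had a pair at 8.96%, where all genes had 14.6%. Light-harvesting and RuBisCO genes had a pair at 17 of 22, of which 4 were within 100 bp and 1 had both summits outside the gene, and the median distance was 418 bp. For HD-ZIPII genes it was 23.5 bp and for all genes with a pair 54 bp. These distances and counts are of the pair with the best mean percentile at each gene, and a closer pair can exist. At LHCB4.1 (AT5G01530) that pair was 660 bp apart, while a weaker ICU4 summit at 210600 lay near the same TPL summit at 210654. LHCB1.5 (AT2G34420, LHB1B2 in the gene table) had 7.72 and 8.41, 490 bp apart. RBCS3B (AT5G38410), a small subunit gene of RuBisCO, had 5.18 and 10.2, 84 bp apart. Tubulin, actin and ubiquitin genes had 13 pairs among 28, at a median distance of 58 bp, near that of all genes, and 7 were within 100 bp. ACT7 (AT5G09810) had fold enrichments of 9.62 for ICU4 and 8.63 for TPL, 13 bp apart. At UBQ10 (AT4G05320) the strongest ICU4 summit was 1885 bp from the TPL summit. A weaker ICU4 peak of 3.80 in the same TPL peak had its summit at 2717941, close to the TPL summit at 2717945. Several of these genes have near-identical copies among which reads could be split. Transcription level was not measured here, and its part in the lists above was not tested.

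**Figure D5:**
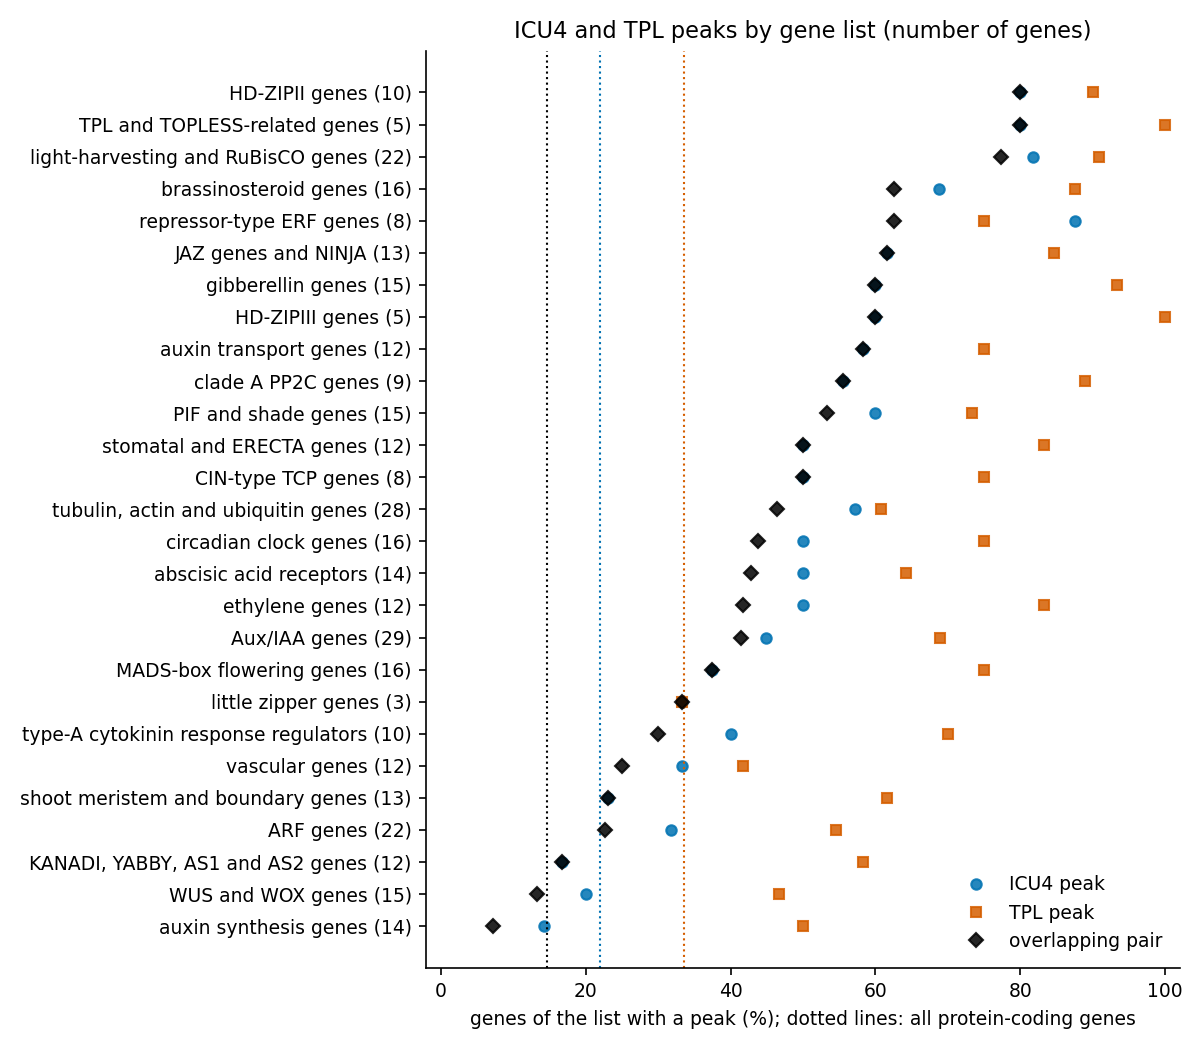
Percentage of the genes of each list (number of matched genes in brackets) with an ICU4 peak, a TPL peak and an overlapping pair. Dotted lines mark all protein-coding genes at 21.9%, 33.6% and 14.6%. Where symbols coincide the pair marker covers the others. HD-ZIPII genes have a pair at 8 of 10 and light-harvesting and RuBisCO genes at 77.3%. Auxin synthesis genes have one at 1 of 14 (7.14%).

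Broader gene families, taken from words or symbols in the gene table, ranged less widely. A pair was present at 40.3% of 67 genes with homeobox in a name, 29.9% of 67 WRKY genes, 34.5% of 58 UGT glycosyltransferase genes and 20.4% of 583 genes with kinase in a name. Below or near the 14.6% of all genes were ribosomal protein genes (8.96% of 67), MYB genes (13.3% of 120) and cytochrome P450 genes (15.5% of 232). TPL without ICU4 was found at 8 of 16 SPL genes, which encode transcription factors of phase change, against 17.3% of all genes.

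Assignment to the nearest gene hid TPL at some strong ICU4 sites. The 5 strongest ICU4 peaks of genes with no TPL peak were at ERF4 (13.7), ARF2 (12.0), TCH3 (10.3), AT2G01035 (8.90) and AT5G11070 (8.48). At 4 of the 5 the ICU4 peak overlapped a TPL peak whose summit was nearer to a neighbouring gene. The ERF4 peak overlapped a TPL peak from 5121110 to 5126299 on chromosome 3 with its summit by AT3G15220, 2788 bp away, and the ARF2 peak a TPL peak from 24907950 to 24911377 on chromosome 5 with its summit by AT5G61997, 1912 bp away. TCH3, a calmodulin-like gene of touch responses, shared such a peak with the calmodulin gene CAM2, 872 bp away, and AT5G11070 with the homeobox gene KNAT4, 2243 bp away. Of the 1541 genes with ICU4 and no TPL peak, 269 (17.5%, 15.6 to 19.4) had an ICU4 peak overlapping a TPL peak of a neighbour.

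The strongest ICU4 peaks that overlapped no TPL peak, listed after their values were seen, were weaker. They lay at AT2G01035 with 8.90, GLC (AT1G65450) with 8.23, the actin gene ACT12 (AT3G46520) with 7.85, AT1G20795 with 7.60 and AT2G01045 with 7.41. The nearest TPL summit was between 5050 bp and 45653 bp away. AT2G01035 and AT2G01045 lie close together on chromosome 2, with ICU4 summits at 52227 and 55208, and there REV, PHB, PHV and ATHB8 peaks overlapped as well. PHB and PHV peaks overlapped the other 3, and at ACT12 ATHB8 did too.

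Strong TPL peaks without ICU4 reached the top of the TPL list. At genes with no ICU4 peak they were led by AT1G56630 (13.9), AT4G16880 (12.8), the glutamate synthase gene GLU2 (12.4), PRE1 (12.4), which encodes a growth-promoting helix-loop-helix protein, and AT3G45260 (12.3). AT1G56630 had its TPL summit at 21228214 on chromosome 1, 20538 bp from the nearest near-gene ICU4 summit. The peak at AT4G16880 did overlap an ICU4 peak, which was assigned to a neighbouring gene. Of the other 4 peaks, that at PRE1 overlapped a PHB peak, and none of the 4 overlapped REV, PHV or ATHB8.

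Some pairs were unequal in strength. AT3G60940 had an ICU4 fold enrichment of 7.34 (percentile 97.4) with its summit 12 bp from a TPL summit of 1.80 (percentile 3.37). At WRKY33 (AT2G38470), a regulator of defence, a pair had 5.49 and 1.69, 221 bp apart, and at the peroxisomal protease gene LON2 (AT5G47040) 5.47 and 1.68, 346 bp apart. In the other direction the TPL peaks of AT5G10560 (10.4), AT1G05870 (11.1) and IAA2 (14.0) overlapped ICU4 peaks of 2.12, 2.22 and 2.32. These 3 TPL peaks were wide, from 1164 to 2354 bp, and each also held a stronger ICU4 peak nearer its summit. Peaks of both proteins without overlap were led by AT1G22330, with 5.57 and 8.21 and summits 3926 bp apart, AT5G62350, with 4.43 and 7.73, 2179 bp apart, and the tonoplast aquaporin gene DELTA-TIP, with 4.94 and 6.37, 1931 bp apart. At all 3 the ICU4 peak overlapped a TPL peak of a neighbouring gene.

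Just beyond the 2000 bp limit the shares were lower than just inside it in both lists, with overlapping intervals. In the last 500 bp inside the limit 84.1% (77.8 to 88.9) of 164 ICU4 peaks overlapped TPL. In the first 500 bp beyond it 75.4% (67.3 to 82.0) of 130 did, with a median fold enrichment of 3.67 in both. For TPL the shares overlapping ICU4 were 31.4% (27.0 to 36.1) of 389 and 27.0% (22.2 to 32.3) of 293, with a median fold enrichment of 4.08 inside the limit.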

How the data were processed

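Per the submitters' processing notes, the authors used Bowtie2, MACS2 and TAIR10. Versions and settings are not stated there. The series text speaks of duplicates, but no source used here says whether they were pooled. Per the file headers, the deposited lists give each peak's position, its pileup as a coverage signal, its p-value and q-value as −log10 values, and its fold enrichment as a linear ratio to local background. Positions are 1-based, since length equals end minus start plus 1 in both lists.

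Gene names and nearest genes came from the NCBI RefSeq table of TAIR10.1 (27444 nuclear protein-coding genes), which has neither strand nor sequence, so no sequence is shown. Each summit went to the nearest gene, at distance 0 when inside it. Peaks overlapped when they shared 1 bp or more. Percentiles of fold enrichment were taken over the near-gene peaks of a list. Of 368 memberships in 27 gene lists, 366 were matched. Python 3.11.15, pandas 2.3.3 and scipy 1.17.1 were used, and the overlap code was tested on simulated peaks.

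The peaks, lists and named genes were chosen with earlier results of these data known. Named genes were the members of the HD-ZIPIII and TPL families, up to 3 genes with a pair per list by mean percentile, the 10 best pairs, the 5 strongest genes of either protein alone, the 3 most unequal pairs in each direction and the 3 strongest genes with peaks apart. Other list members are named where a count of 5 or fewer, or a missing peak, singles them out, after their values were seen. No test was run, as there is 1 list per protein. Read depth is unknown, and Wilson intervals cover counting error only. Alternatives changed the overlap rule, the peak width, the peaks kept, the gene window and the gene assignment.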

Additional observations from a re-analysis of the deposited data

Results flagged for a closer look

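The ICU4 list held 75 peaks on the chloroplast genome, outside the nuclear comparison, where the TPL list held 0. Their fold enrichments were low, from 1.25 to 1.66. They were set apart because they are a signal in data that the comparison does not use.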

How the results depend on the processing

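Higher ICU4 and TPL ranks in shared peaks, and the lower in-gene share of ICU4 peaks with TPL, kept their direction under the alternatives run, though the 95% interval of the TPL rank difference reached below 0 with 50% of both peaks covered. The main values were 71.2% of ICU4 and 38.5% of TPL peaks shared, a median distance of 94 bp, in-gene differences (with minus without the partner) of -23.4 points for ICU4 and 2.78 for TPL, percentile differences of 28.0 and 31.0, and 4005 genes with a pair. With summits within 100 bp these were 36.4%, 25.2%, 29 bp, -39.8 and -8.45 points, and a TPL percentile difference of 34.1. With 50% of both peaks covered they were 11.5%, 7.95%, 48 bp, -5.07 and 11.8 points, percentile differences of 32.0 and 2.95, and 905 genes. Windows of 100 bp to each side of the summit gave 44.6%, 30.6%, 38 bp, -35.0 and -2.25 points. Peaks above the median fold enrichment gave 51 bp and 2077 genes. A TPL list cut to the ICU4 length gave 61.0%, 46.0% and a TPL in-gene difference of 5.53 points. A −log10 q of at least 5 gave 84.4%, 25.7%, 53 bp, a TPL in-gene difference of -4.08 points, a TPL percentile difference of 37.3 and 2557 genes. A gene window of 500 bp gave 66.9%, 39.9%, 109 bp, -16.3 and -0.649 points and an ICU4 percentile difference of 24.4. Counting every gene within 2000 bp gave 7069 genes. Split by position, alternatives chosen after seeing the data, the ICU4 share was 64.6% inside and 88.5% outside genes, and the median distance 125 bp and 32 bp. The direction of the TPL in-gene difference thus changed under 4 alternatives, and the cause was not tested. Of 88 named genes with a pair, 76 kept it with summits within 100 bp and 18 with 50% of both peaks. With the 500 bp window 63 kept it. Pair counts stayed within 1.5 times the main count in 23 of 27 gene lists with summits within 100 bp. The same number did so with windows of 100 bp. It was 25 when counting every gene, 24 with the cut TPL list and 19 with the 500 bp window. A −log10 q of at least 5 gave 17, peaks above the median fold enrichment 16, and 50% of both peaks 3. No paired analysis was possible because each protein has 1 list and no test was run. Unknown depth limits what the absence of a peak can mean.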

Other observations

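Genes with many ICU4 peaks differed in how many of these overlapped TPL. AT2G08986 had 15 ICU4 peaks and no TPL peak, and AT1G40104 had 8 and none, with fold enrichments of at most 1.68 and 1.59. TIC (AT3G22380), a clock regulator gene, had 10 ICU4 peaks, 9 of which overlapped a TPL peak, with a highest fold enrichment of 8.73. LOX3 (AT1G17420), a lipoxygenase gene of jasmonate synthesis, had 8 ICU4 peaks, and all 8 overlapped TPL, as did all 8 at AT3G50650. In between were ACA1, with 5 of 8, and AT1G56140 and LON2, each with 4 of 8. These genes were chosen after their values were seen.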
